A study of Homo sapiens with 12 samples.

Results

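HMLE-Twist cells were compared with HMLE-pBp cells, both after the mock treatment, by RNA sequencing. The comparison takes 6 of the 12 libraries of the series, 3 of each line, chosen by line and treatment as the labels give them, and all 26364 genes listed for both lines. HMLE is a human mammary epithelial line immortalised with hTERT and the SV40 large T antigen, and both lines share that background. HMLE-Twist cells were made to express the transcription factor TWIST1 and carry the phenotype label EMT. HMLE-pBp cells carry the control vector and the label nonEMT. Both lines were grown in the same HMLE medium, with serum, insulin and hydrocortisone, and received DMSO for 24 hours as the mock for salinomycin, which the other 6 libraries received at 0.2 uM. The labels call the 3 libraries of a line biological replicates. They do not give the promoter that drives TWIST1 or the number of clones behind each line, so a difference between the lines cannot be told apart from one between the clones or pools that founded them.

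In an epithelial to mesenchymal transition (EMT), cells give up the junctions and keratin filaments that hold an epithelial sheet together and take on the vimentin filaments, matrix secretion and motility of mesenchymal cells. TWIST1 is a basic helix-loop-helix factor that binds E-box sequences and can start this change in mammary epithelial cells. The zinc finger factors of the SNAI and ZEB families bind the E-box CAGGTG and repress genes such as CDH1, while microRNAs of the miR-200 family bind ZEB1 and ZEB2 transcripts and lower them.

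The E-box and the miR-200 seed can both be read in reference sequence. The promoter windows below belong to 3 genes that fell in HMLE-Twist (CRB3, DSP and KRT5) and 1 that rose (VIM). They were picked as examples after values and windows had been seen. Each is the 250 bases before the gene's start in RefSeq (GRCh38.p14), 5′ to 3′ on the strand of the gene, with CAGGTG or its reverse complement CACCTG in capitals.
CRB3, chr19:6464021-6464270, + strand: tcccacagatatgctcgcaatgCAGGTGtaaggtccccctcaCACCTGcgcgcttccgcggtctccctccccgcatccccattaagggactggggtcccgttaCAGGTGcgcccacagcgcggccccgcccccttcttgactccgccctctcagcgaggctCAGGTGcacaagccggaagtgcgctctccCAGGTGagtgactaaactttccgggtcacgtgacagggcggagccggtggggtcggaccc
DSP, chr6:7541421-7541670, + strand: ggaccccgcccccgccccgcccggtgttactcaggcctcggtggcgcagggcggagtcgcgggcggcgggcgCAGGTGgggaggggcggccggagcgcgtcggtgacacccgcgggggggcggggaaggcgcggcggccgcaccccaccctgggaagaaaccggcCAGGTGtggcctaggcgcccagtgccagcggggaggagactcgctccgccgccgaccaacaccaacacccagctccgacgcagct
KRT5, chr12:52520395-52520644, - strand: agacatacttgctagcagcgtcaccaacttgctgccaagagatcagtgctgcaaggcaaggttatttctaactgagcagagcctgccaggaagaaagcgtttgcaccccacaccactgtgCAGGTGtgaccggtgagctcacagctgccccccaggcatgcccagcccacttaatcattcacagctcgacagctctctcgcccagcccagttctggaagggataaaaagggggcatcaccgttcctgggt
VIM, chr10:17227991-17228240, + strand: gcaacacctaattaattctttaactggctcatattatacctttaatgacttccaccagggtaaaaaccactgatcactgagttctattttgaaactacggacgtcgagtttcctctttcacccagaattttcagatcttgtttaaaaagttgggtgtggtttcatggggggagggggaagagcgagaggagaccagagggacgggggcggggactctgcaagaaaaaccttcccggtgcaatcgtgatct
The CRB3 window holds 5 such E-boxes, the DSP window 2, the KRT5 window 1 and the VIM window 0. Among all 35116 windows of the same length in that RefSeq table, 17.5% hold at least 1, 2.53% at least 2 and 0.074% at least 5. A match describes the sequence only, since no binding was measured here.

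The mature microRNAs of the miR-200 family and miR-205 from the same RefSeq build follow, with the seed, bases 2 to 8, in capitals.
hsa-miR-200b-3p: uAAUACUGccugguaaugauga
hsa-miR-200c-3p: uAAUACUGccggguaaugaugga
hsa-miR-429: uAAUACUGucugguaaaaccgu
hsa-miR-200a-3p: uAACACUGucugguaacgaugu
hsa-miR-141-3p: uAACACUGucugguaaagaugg
hsa-miR-205-5p: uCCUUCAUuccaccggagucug
MiR-200b, miR-200c and miR-429 share the seed AAUACUG, miR-200a and miR-141 share AACACUG, and miR-205 has its own seed, CCUUCAU. The libraries were made from mRNA and do not measure mature microRNAs, so only the host transcripts can be given. MIR205HG, the host transcript of miR-205, was listed at 0.356, 0 and 0 FPKM in HMLE-Twist and at 88.4, 87.9 and 93 FPKM in HMLE-pBp. It fell by 6.36 ± 0.14 (SE) on the log2(FPKM + 1) scale (adjusted p = 4.79e-09), and rests on 7 reads against 4821. Of the 7 transcripts listed for these microRNAs only MIR205HG and MIR205 passed the filter on low values, and MIR205 rests on too few reads for a fold.

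Values are FPKM, fragments per kilobase of transcript and scaled to the size of the library, so that levels can be set beside each other between genes. The reads recovered per library came to 20.94, 19.26 and 26.51 megareads in HMLE-Twist and 20.78, 17.86 and 24.63 in HMLE-pBp. Libraries of a line correlated at r = 0.9758 to 0.9898 in HMLE-Twist and 0.9918 to 0.9949 in HMLE-pBp, and libraries of different lines at 0.7427 to 0.7823 (log2 values, across genes, which are not independent replicates). On principal components the lines lay apart along the first, with 94% of the variance. Along the second, with 3.64%, HMLE-Twist replicates 1 and 3 stood at the ends, at 23.2 and -20.9, with replicate 2 at -3.56. HMLE-pBp replicates 1 to 3 stood there at 6, 2.77 and -7.55, in the same order by number. The HMLE-Twist libraries differed more among themselves, with a median SD per gene of 0.165 on the log2 scale, against 0.094 for HMLE-pBp.

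Genes at 1 FPKM or more in at least 3 of the 6 libraries were tested, which kept 11872. Below, a log2 change is the mean log2(FPKM + 1) in HMLE-Twist minus that in HMLE-pBp, with its SE from a limma fit. A gene is said to have risen or fallen where its p, adjusted by Benjamini-Hochberg over all genes tested, was under 0.05. The added 1 shrinks the log2 change of a gene that is near 0 in 1 line.

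Most of the transcriptome differed between the lines. Of the 11872 genes tested 8302 changed (69.9%), 4037 upward in HMLE-Twist (34%) and 4265 downward (35.9%). The median log2 change over all genes was -0.01, which is largely set by the joint rescaling. Without rescaling this median was 0.13, and 4905 genes rose and 3632 fell. At a change of at least 2-fold the falls were more numerous, with 1161 genes that rose (9.78%) and 2061 that fell (17.4%), together 27.1% of those tested. The excess held at higher folds, with 307 rises against 680 falls at 4-fold, 53 against 154 at 16-fold and 16 against 38 at 64-fold. In 73.9% of the genes the 3 libraries of 1 line all lay above the 3 of the other. A count of changed genes in a list below therefore has to be read against these shares. Counts near them describe the comparison as a whole and not that list. Of the genes tested, 1282 passed the filter through 1 line only, and such a gene had to differ between the lines. Without HMLE-Twist replicate 1, 4327 genes rose and 4432 fell, and without replicate 3, 4123 and 4316.

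**Figure D1:**
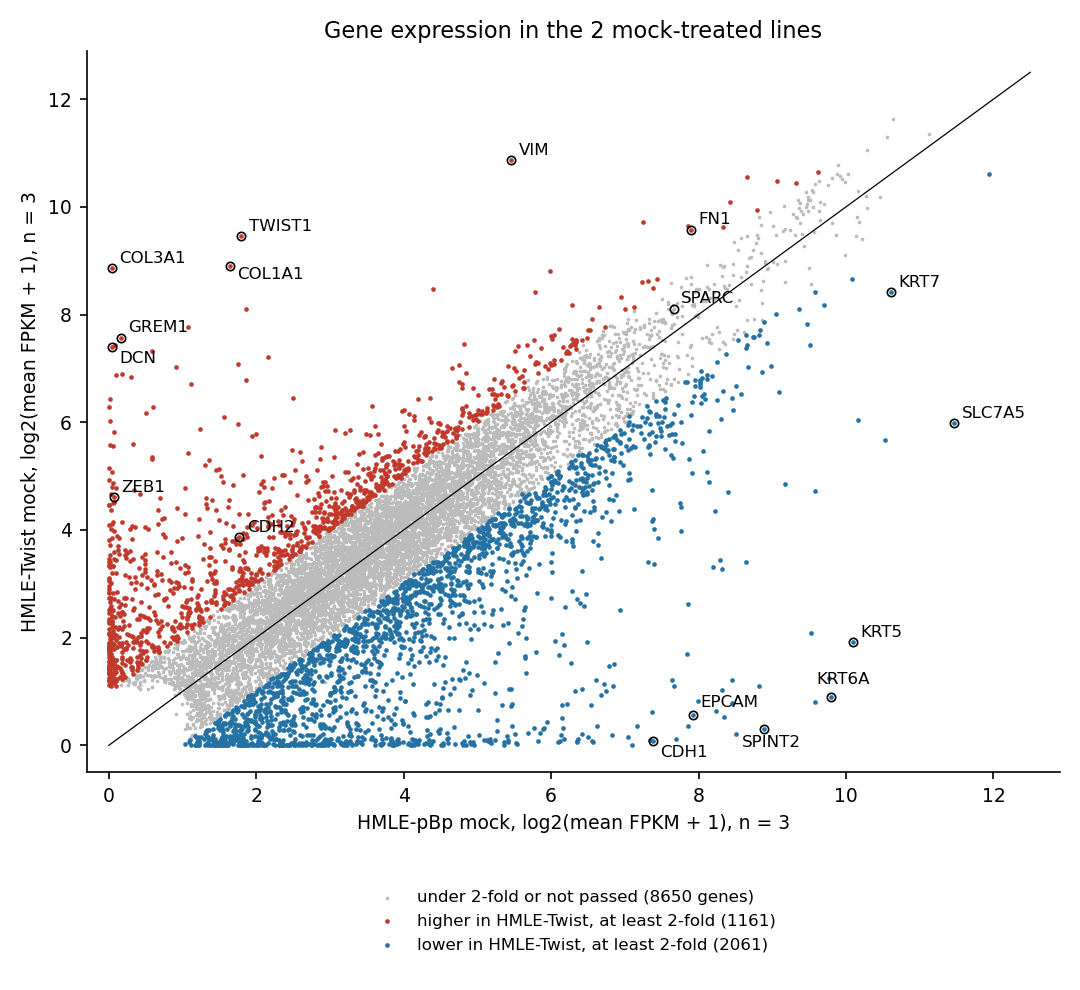
Mean level of each tested gene in HMLE-pBp (x axis) and HMLE-Twist (y axis), both log2(FPKM + 1), with the 1161 genes that rose at least 2-fold in red and the 2061 that fell in blue. COL3A1, TWIST1 and VIM lie far above the diagonal, and KRT6A, KRT5, CDH1 and SPINT2 far below it.

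TWIST1 itself was checked first. It stood at 493, 527 and 1085 FPKM in HMLE-Twist and at 2.48, 2.44 and 2.52 FPKM in HMLE-pBp. Every HMLE-Twist library was far above every HMLE-pBp library, and HMLE-Twist replicate 3 was the highest. The log2 change was 7.56 ± 0.27 (adjusted p = 6.2e-08), with 88179 reads against 249, so the libraries bear out their labels. Whether these reads come from the introduced or the cell's own gene was not tested.

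Most transcription factors listed for the EMT rose. Of 15 in the list, TWIST1 included, 13 were tested, 9 rose and 4 fell, with a median log2 change of 1.89. TWIST1, the factor the line was made to express, is thus among the 9. Of the 13, 8 passed the filter through 1 line only. ZEB1, a repressor of epithelial genes, stood at 25.6, 25.9 and 18.6 FPKM in HMLE-Twist and at 0.0462, 0.0554 and 0.0548 FPKM in HMLE-pBp, and its log2 change was 4.52 ± 0.14 (adjusted p = 2.52e-08). Its relative ZEB2 stood at 4.78, 4.41 and 3.75 FPKM in HMLE-Twist and at 0.122, 0.116 and 0.105 in HMLE-pBp (log2 change 2.25 ± 0.099, adjusted p = 2.28e-07). Both ZEB genes were thus close to 0 in all HMLE-pBp libraries. PRRX1, a homeobox factor of mesenchymal cells, was listed at 20.7, 13.6 and 14.1 FPKM in HMLE-Twist and at 0 in all 3 HMLE-pBp libraries, which makes it at least 1297-fold higher against a floor of 3 reads over the group. SNAI1 rose from 0.0865, 0.0691 and 0.154 to 3.93, 3.44 and 3.31 FPKM (log2 change 2.05 ± 0.091, adjusted p = 2.55e-07). SNAI2, its relative, was already transcribed in HMLE-pBp, at 20.1, 18.9 and 18.4 FPKM, and stood at 38.6, 26.6 and 24.9 FPKM in HMLE-Twist. The groups did not overlap, but the change was small for this list, at 0.60 ± 0.16 (adjusted p = 0.00906). TWIST2, the closest relative of TWIST1, rose from 1.64, 1.23 and 1.67 to 4.49, 6.44 and 10.96 FPKM (log2 change 1.66 ± 0.25, adjusted p = 0.000443). As with TWIST1, its highest value was in HMLE-Twist replicate 3. The 4 that fell were SOX9 (-2.27 ± 0.092), FOXC1 (-0.97 ± 0.13), TCF3 (-0.52 ± 0.17) and TCF4 (-0.51 ± 0.099). The call of TCF3 was lost without HMLE-Twist replicate 1 or 2, without HMLE-pBp replicate 1 or 3 and under 2 other scalings (adjusted p 0.0216, and up to 0.0919). TCF3 and TCF4 encode E proteins, the partners with which TWIST1 binds DNA as a dimer.

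Factors that maintain epithelial identity fell. Of 21 tested 18 fell and 2 rose, with a median log2 change of -2.30, and 13 of them passed the filter through 1 line only. ESRP1, which directs the epithelial pattern of splicing, stood at 33.8, 32.05 and 33.03 FPKM in HMLE-pBp and at 0.107, 0.0759 and 0.0275 FPKM in HMLE-Twist, and fell by 4.99 ± 0.092 (adjusted p = 2.56e-09). Its paralogue ESRP2 fell by 4.24 ± 0.10. TP63, which encodes p63, the factor of basal epithelia, stood at 19.9, 16.6 and 15.5 FPKM in HMLE-pBp and at 0.0902, 0.0591 and 0.00535 FPKM in HMLE-Twist (log2 change -4.12 ± 0.11, adjusted p = 1.68e-08). GRHL2, an activator of junction genes, fell by 3.86 ± 0.088, and OVOL2, a repressor of ZEB1, by 2.12 ± 0.088. SOX15 stood at -5.001 ± 0.12, the largest fall of the list. KLF4 and GATA3 went the other way, at 1.097 ± 0.12 and 0.71 ± 0.14.

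**Figure D2:**
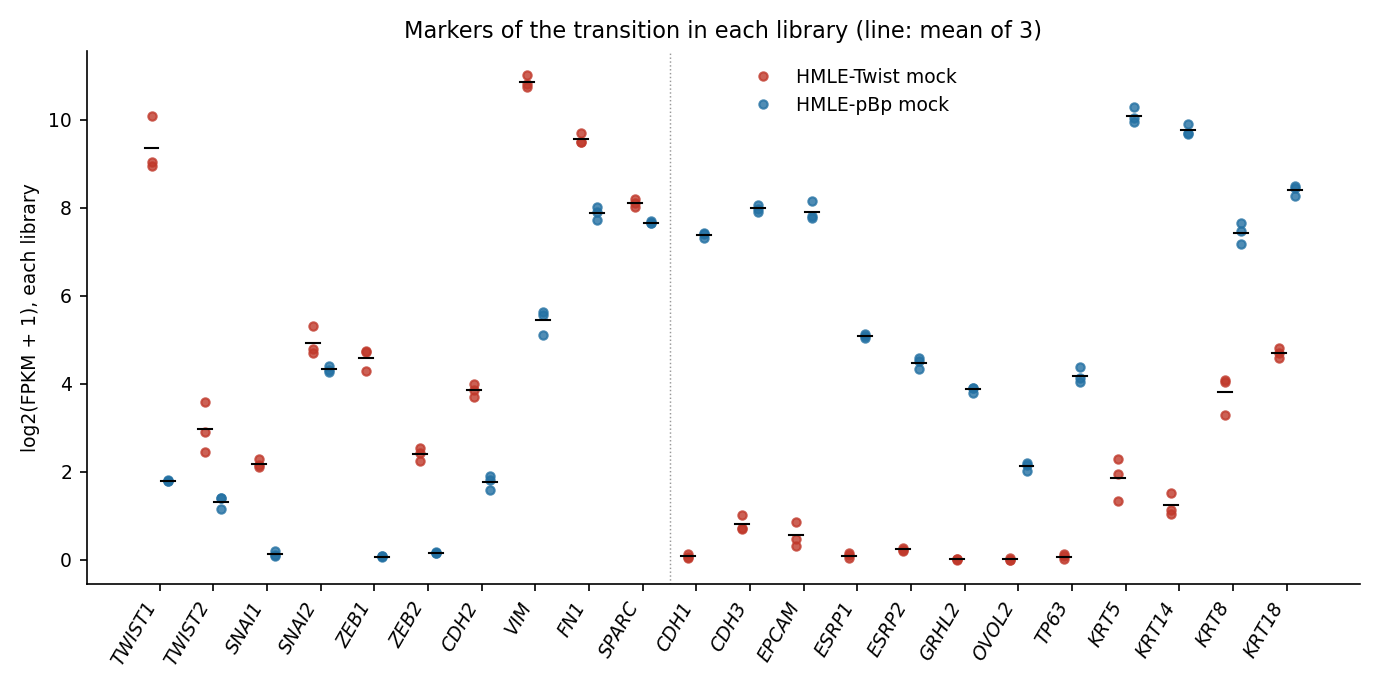
Level of regulators and markers of the transition in each library, as log2(FPKM + 1), with red points for HMLE-Twist, blue for HMLE-pBp and a short line at each group's mean. The mesenchymal genes on the left are higher and the epithelial genes on the right lower in HMLE-Twist. SNAI2, VIM, FN1 and SPARC on the left, and KRT8 and KRT18 on the right, are well above 0 in both lines.

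The cadherins of epithelia fell to near 0, and N-cadherin rose. CDH1, or E-cadherin, which joins epithelial cells at adherens junctions, stood at 159, 168 and 170 FPKM in HMLE-pBp and at 0.09404, 0.03001 and 0.0507 FPKM in HMLE-Twist. No library of HMLE-Twist came near the HMLE-pBp range, and CDH1 fell by 7.301 ± 0.090 (adjusted p = 9.87e-10). CDH3, the P-cadherin of basal cells, fell from 239.8, 251 and 268 to 0.656, 1.04 and 0.612 FPKM (log2 change -7.17 ± 0.12, adjusted p = 1.73e-09). CDH2, or N-cadherin, rose from 1.99, 2.54 and 2.72 to 15.1, 13.6 and 11.9 FPKM (log2 change 2.09 ± 0.13, adjusted p = 1.8e-06). In FPKM, the rise of N-cadherin was thus far smaller than the loss of the other cadherins. Of 13 cadherins, catenins and nectins tested 9 fell and 3 rose, with a median of -1.15, and 3 of the 13 passed the filter through 1 line only. Besides CDH2 the rises were PVRL3, a nectin (3.56 ± 0.12), and CTNNB1, or beta-catenin, which links cadherins to the cytoskeleton and acts in Wnt signalling (0.29 ± 0.085, adjusted p = 0.0141). CTNNB1 stood at 158, 154 and 149 FPKM in HMLE-Twist and 134, 120.3 and 122 FPKM in HMLE-pBp, and its call was lost without HMLE-pBp replicate 2 or 3 (adjusted p = 0.0761 and 0.0645). PVRL1, another nectin, fell by 3.63 ± 0.11.

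Genes of desmosomes, which anchor keratin filaments at cell contacts, fell almost without exception. Of 13 genes tested 12 fell, all of them at least 2-fold, and none rose (median log2 change -4.02), with 4 past the filter through 1 line only. DSP, the desmoplakin that binds the filaments, stood at 138, 149.9 and 140.1 FPKM in HMLE-pBp and at 0.447, 0.277 and 0.126 FPKM in HMLE-Twist, and fell by 6.82 ± 0.12 (adjusted p = 1.91e-09). DSG3, a desmosomal cadherin, fell by 6.06 ± 0.103, JUP, or plakoglobin, by 5.75 ± 0.11, and DSC2, a second kind of desmosomal cadherin, by 5.11 ± 0.12. The remaining gene did not pass.

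Tight junction and polarity genes fell in 16 of 24 cases and rose in 4, with a median of -2.58, and 12 of the 24 passed the filter through 1 line only. EPCAM, an epithelial adhesion protein, went from 216, 225 and 285 FPKM in HMLE-pBp to 0.817, 0.252 and 0.386 FPKM in HMLE-Twist, a log2 change of -7.36 ± 0.17 (adjusted p = 5.8e-09). F11R, the junctional adhesion molecule A, fell by 5.79 ± 0.104, and the claudins CLDN7 and CLDN4 fell by 5.41 ± 0.202 and 5.13 ± 0.11. CRB3, the apical polarity protein whose E-boxes are printed above, was listed at 20.4, 22.4 and 23.8 FPKM in HMLE-pBp and at 0, 0 and 0.0316 FPKM in HMLE-Twist, and fell by 4.52 ± 0.097; it was chosen for its promoter after the values were seen. Scaffold genes beneath the junction stood closer to 0. TJP1, which encodes ZO-1, stood at -0.13 ± 0.14 and did not pass; it fell without HMLE-Twist replicate 1 (-0.26, adjusted p = 0.0388) and was at 0.03 without rescaling. PARD3 (0.54 ± 0.12) and PRKCI (0.37 ± 0.14), both of the PAR polarity complex, rose, as did CLDN11 (1.87 ± 0.091) and MPP7 (1.79 ± 0.13). PRKCI lost its call without HMLE-Twist replicate 1 or 2 or HMLE-pBp replicate 2 or 3 (adjusted p up to 0.178, against 0.0476), with a pseudocount of 0.1 (0.0501) and with no filter on low values (0.0778).

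Keratins, the intermediate filaments of epithelia, fell without exception among the 13 tested, with a median log2 change of -5.45, and 5 of them passed the filter through 1 line only. KRT6A, a keratin of activated keratinocytes, stood at 892, 890 and 882 FPKM in HMLE-pBp and at 1.81, 0.472 and 0.285 FPKM in HMLE-Twist, and its fall of 8.99 ± 0.26 (adjusted p = 1.89e-08) was the largest of all genes whose groups did not overlap. KRT5, the type II keratin of basal cells, fell from 1245, 983 and 1059 to 3.93, 2.84 and 1.51 FPKM (log2 change -8.23 ± 0.22). KRT17 (-8.78 ± 0.103), KRT14 (-8.53 ± 0.14), the partner of KRT5, and KRT81 (-7.72 ± 0.16) fell to a like extent. KRT7, KRT8 and KRT18, keratins of simple epithelia, fell less far than these. The smallest fall of the list, a log2 change of -0.80, was that of another keratin. KRT7 stood at 1625, 1443 and 1629 FPKM in HMLE-pBp and still at 303, 306 and 409.6 FPKM in HMLE-Twist (-2.21 ± 0.13, adjusted p = 1.4e-06). KRT8 still stood at 8.82, 15.5 and 15.9 FPKM in HMLE-Twist (log2 change -3.63 ± 0.22). KRT18, the chain that pairs with it, stood there at 22.9, 25.1 and 27.3 FPKM (log2 change -3.703 ± 0.102). Keratin transcripts took 1.68% ± 0.127 (SD, n = 3) of summed FPKM in HMLE-pBp and 0.106% ± 0.0143 in HMLE-Twist.

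The hemidesmosome, through which basal cells hold the basement membrane, fell with its ligand laminin-332. Of 9 genes 7 fell and none rose (median -5.23), with 2 past the filter through 1 line only. LAMA3, the laminin alpha 3 chain, stood at 181, 218 and 207 FPKM in HMLE-pBp and at 1.02, 1.45 and 1.01 FPKM in HMLE-Twist, and fell by 6.56 ± 0.12 (adjusted p = 2.47e-09). COL17A1, the transmembrane collagen of hemidesmosomes, fell by 8.299 ± 0.13, and ITGB4, the integrin beta 4 chain, went from 263, 299.9 and 337 to 0.417, 0.721 and 0.505 FPKM (-7.60 ± 0.12). The plakins of the structure, DST (0.025 ± 0.16) and PLEC (-0.58 ± 0.28), which also serve in other cell types, did not pass. PLEC fell, however, without HMLE-Twist replicate 3 (-0.88, adjusted p = 0.00424) and in the limma fit with the replicate number as a block (-0.58, adjusted p = 0.00162). DST stood at -0.15 without HMLE-Twist replicate 1.

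The list of keratinocyte differentiation and S100 genes fell in all 18 cases tested (median -3.72), and epithelial serine proteases and serpins in all 17 (median -3.88). In each of these lists 14 passed the filter through 1 line only. S100A14 fell by 7.85 ± 0.19, the protease inhibitors SLPI and PI3 by 5.92 ± 0.15 and 5.07 ± 0.11, and SPRR1B, a cornified envelope protein, by 5.31 ± 0.12. SPINT2, a membrane inhibitor of serine proteases, stood at 435, 454 and 528 FPKM in HMLE-pBp and at 0.176, 0.241 and 0.271 FPKM in HMLE-Twist, and fell by 8.59 ± 0.105 (adjusted p = 9.87e-10). Its paralogue SPINT1 (-6.75 ± 0.099), their target ST14, or matriptase (-7.57 ± 0.11), and the kallikrein KLK5 (-7.69 ± 0.15) fell as well, so that inhibitors and proteases went down side by side.

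**Figure D3:**
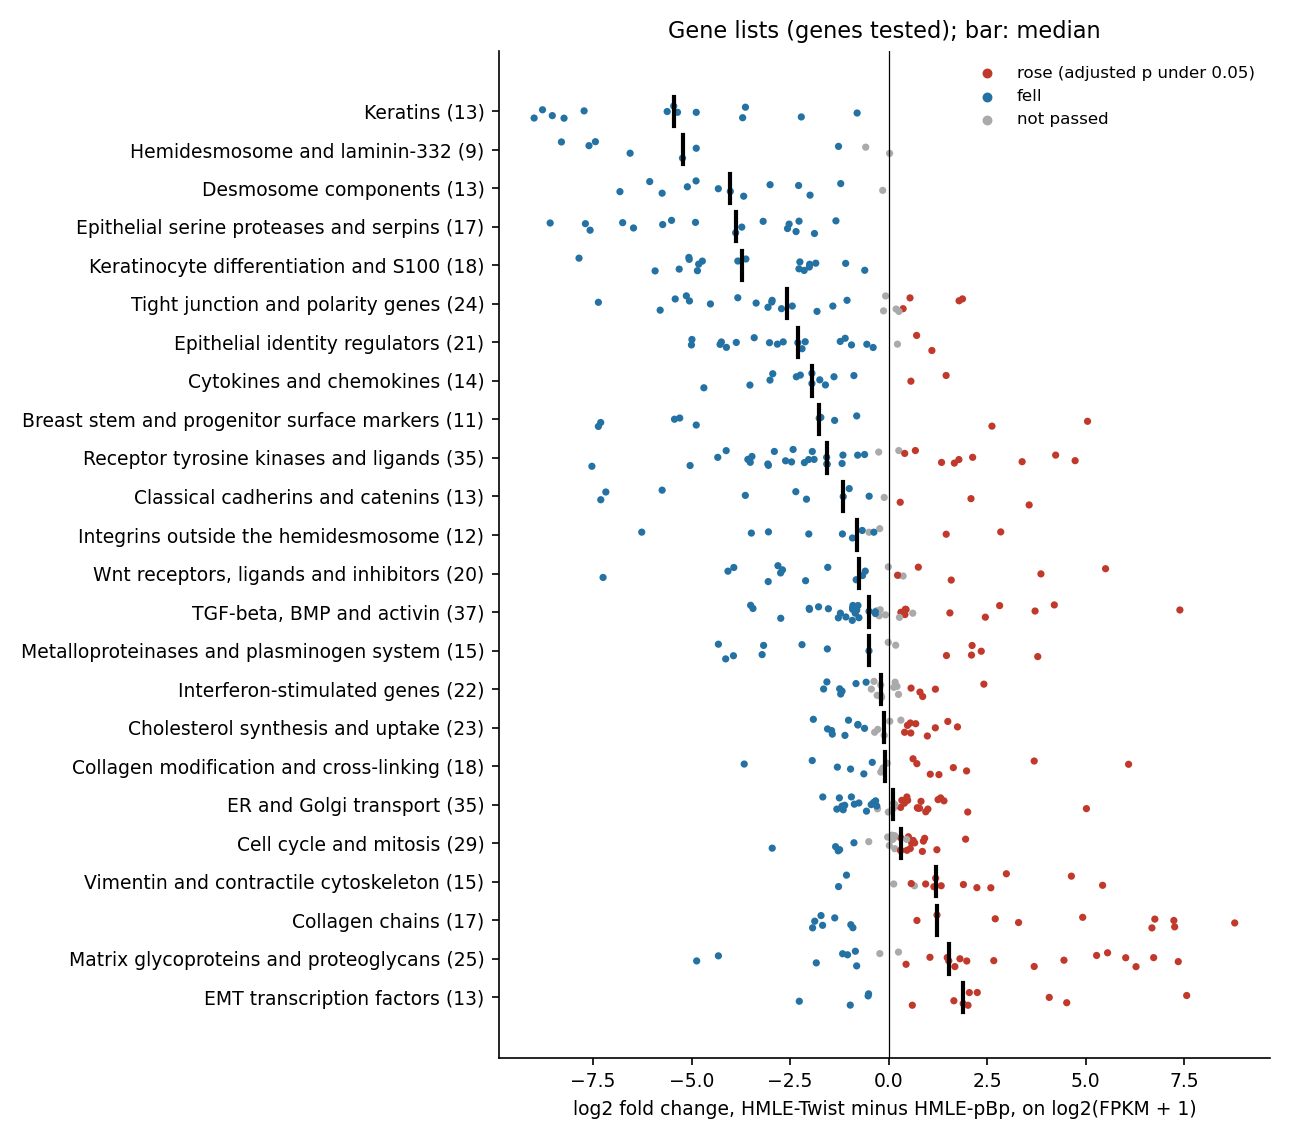
Log2 change of each tested member of 24 gene lists, with red for genes that rose, blue for those that fell, grey for those that did not pass and a bar at each list's median. Desmosome, keratin, hemidesmosome and protease lists lie almost wholly below 0, while collagens and matrix genes spread to both sides.

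Vimentin and contractile genes rose in HMLE-Twist. VIM stood at 1810, 1728 and 2075 FPKM in HMLE-Twist and at 46.7, 48.9 and 33.4 FPKM in HMLE-pBp, a log2 change of 5.43 ± 0.15 (adjusted p = 1.68e-08). VIM, the intermediate filament of mesenchymal cells, had the largest gain in mean FPKM of all genes tested. Of 15 genes of the list 11 rose and 2 fell (median 1.19). MYL9, a regulatory myosin light chain, rose by 4.63 ± 0.18, the calcium-binding S100A4 by 2.99 ± 0.15, and MYLK, the kinase of that light chain, by 2.59 ± 0.11. FSCN1, or fascin, which bundles actin, fell by 1.27 ± 0.21, and SYNPO by 1.07 ± 0.11. The list took 0.726% ± 0.0373 (SD, n = 3) of summed FPKM in HMLE-Twist and 0.134% ± 0.00728 in HMLE-pBp.

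Collagen genes went in both directions. Of 17 chains tested 10 rose and 7 fell, with a median of 1.23, and 6 of the 17 passed the filter through 1 line only. COL3A1, a fibrillar collagen of loose connective tissue, stood at 312, 596 and 489 FPKM in HMLE-Twist and at 0.0358, 0.0215 and 0.0239 FPKM in HMLE-pBp. Its log2 change of 8.78 ± 0.21 (adjusted p = 7.81e-09) was the largest rise of all genes tested whose groups did not overlap, and rests on 9 reads in HMLE-pBp. COL1A1, a chain of type I collagen, stood at 353, 522 and 559 FPKM against 2.02, 2.32 and 2.03 (7.23 ± 0.17). For both chains HMLE-Twist replicate 1 was the lowest of its group. COL1A2, its partner chain, rose by 6.75 ± 0.15, and the type VI chains COL6A1 and COL6A2 by 6.68 ± 0.22 and 7.25 ± 0.29. The falls lay elsewhere, in the basement membrane chains COL4A5 (-1.93 ± 0.15) and COL18A1 (-1.68 ± 0.14), in COL7A1 (-1.72 ± 0.21), which forms the anchoring fibrils beneath epithelia, and in COL16A1 (-1.87 ± 0.16). Collagens took 0.481% ± 0.0999 of summed FPKM in HMLE-Twist and 0.133% ± 0.00846 in HMLE-pBp (SD, n = 3).

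The enzymes that modify and cross-link collagen split. Of 18 tested, 3 of them past the filter through 1 line only, 8 rose and 6 fell. Over all genes tested, 34% rose and 35.9% fell. The list's median of -0.09 was 0.07 with the deposited values not rescaled. PCOLCE, which enhances the trimming of procollagen, rose by 6.09 ± 0.16, while BMP1, the protease it assists, fell by 1.94 ± 0.16. Within the prolyl 3-hydroxylases P3H3 rose by 3.69 ± 0.17 and P3H2 fell by 3.66 ± 0.11. LOXL1, a cross-linking oxidase, and ADAMTS2, which trims procollagen, rose by 1.98 ± 0.28 and 1.64 ± 0.14, and the lysyl hydroxylase PLOD3 and the prolyl hydroxylase P4HA2 fell by 1.30 ± 0.14 and 0.97 ± 0.11. LOX (-0.17 ± 0.105) and SERPINH1, the collagen chaperone (-0.14 ± 0.18, or 0.02 without rescaling), did not pass.

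Of 25 matrix glycoproteins and proteoglycans 16 rose and 7 fell (median 1.53), and 11 of the 25 passed the filter through 1 line only. DCN, or decorin, which coats collagen fibrils, stood at 161, 187 and 155 FPKM in HMLE-Twist and at 0.0784, 0.0235 and 0 FPKM in HMLE-pBp (7.35 ± 0.11, adjusted p = 1.53e-09). FBLN5, an elastic fibre protein, rose by 6.72 ± 0.098, NID1, a linker of basement membranes, by 6.28 ± 0.096, and SDC2 by 6.01 ± 0.094. SDC2 and SDC1 are both heparan sulphate proteoglycans of the cell surface, and SDC1, the epithelial one, fell by 4.32 ± 0.12. FN1, or fibronectin, was abundant in both lines, at 836, 726 and 720.3 FPKM in HMLE-Twist and 211, 239.9 and 260.2 FPKM in HMLE-pBp, and rose by 1.68 ± 0.11 (adjusted p = 2.41e-06). SPARC, a collagen-binding glycoprotein, stood at 275, 294 and 256 FPKM against 207, 199 and 199.9. The SPARC groups did not overlap, but the change was only 0.44 ± 0.086 (adjusted p = 0.00181). TGFBI (-4.87 ± 0.14), TNC, or tenascin C (-1.83 ± 0.11), and HSPG2, or perlecan (-1.17 ± 0.18), fell. In sum the list took 0.591% ± 0.0277 of summed FPKM in HMLE-Twist and 0.65% ± 0.0245 in HMLE-pBp (SD, n = 3), so its makeup moved more than its total.

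**Figure D4:**
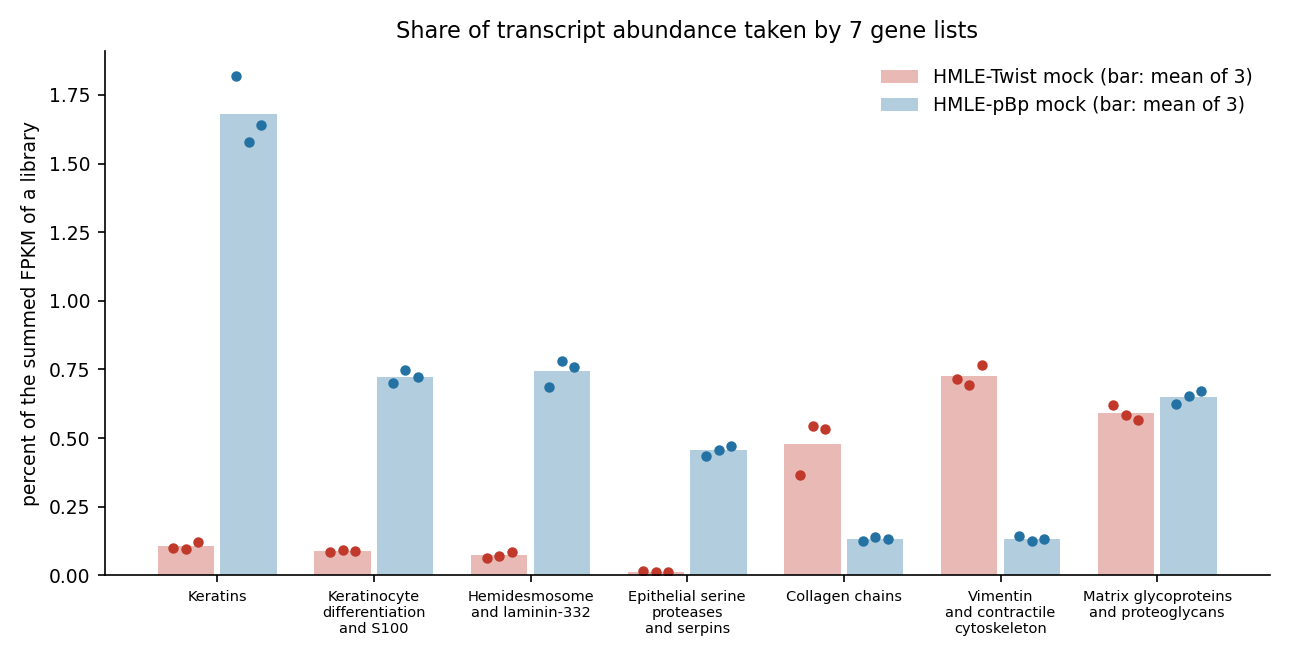
Share of summed FPKM taken by 7 gene lists in each library, in percent, with bars at the mean of 3 libraries and dots for single libraries. Keratins fall from 1.68% to 0.106% and the vimentin and contractile list rises from 0.134% to 0.726%, while matrix genes take 0.65% in HMLE-pBp and 0.591% in HMLE-Twist.

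Matrix-degrading proteases and their inhibitors also went both ways. Of 15 metalloproteinase and plasminogen genes 5 rose and 8 fell (median -0.50), with 3 past the filter through 1 line only. Among all genes tested the shares were 34% up and 35.9% down, so the rises do not set this list apart. MMP2, a gelatinase, stood at 48.7, 60.9 and 51.8 FPKM in HMLE-Twist and at 3.07, 3.301 and 2.57 FPKM in HMLE-pBp, and rose by 3.78 ± 0.12 (adjusted p = 3.69e-08). MMP9, the other gelatinase, fell by 4.13 ± 0.096. ADAM12 (2.35 ± 0.11), ADAMTS1 (2.12 ± 0.16) and the inhibitor TIMP2 (2.102 ± 0.090) rose with MMP2. PLAU, or urokinase (-3.94 ± 0.15), its inhibitor SERPINB2 (-4.32 ± 0.12) and TIMP3 (-3.21 ± 0.11) fell.

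Integrins outside the hemidesmosome mostly fell, with 8 of 12 down and 2 up (median -0.79), and 3 of the 12 passed the filter through 1 line only. ITGB6 (-6.26 ± 0.10) and ITGB8 (-3.48 ± 0.11), beta chains that can release TGF-beta from its latent form, fell the most, followed by the collagen receptor chain ITGA2 (-3.05 ± 0.12) and the laminin receptor chain ITGA3 (-2.02 ± 0.15). ITGA7, a laminin receptor chain known from muscle, rose by 2.84 ± 0.17, and ITGA10 by 1.46 ± 0.14.

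Signalling genes were read by role. TGF-beta, BMP and activin are related ligands that signal through serine kinase receptors and SMAD proteins. Of 7 ligands tested 6 fell and 1 rose (median -1.28), of 9 receptors 7 fell and 1 rose (median -0.78), and of 10 antagonists and storage proteins 6 fell and 4 rose (median -0.62). The 11 intracellular members had 4 rises and 2 falls, with a median of 0.28. These counts stand beside 34% of all genes tested that rose and 35.9% that fell. Over all 4 roles 7 of 37 genes passed the filter through 1 line only. TGFB2, a ligand able to induce EMT, stood at 1.57, 0.817 and 1.02 FPKM in HMLE-Twist and at 3.9, 4.09 and 4.36 FPKM in HMLE-pBp (-1.28 ± 0.14, adjusted p = 5.16e-05), and BMP2 fell by 2.01 ± 0.083. TGFBR3, or betaglycan, which presents TGF-beta to its receptors, was the receptor that rose, by 3.71 ± 0.12. GREM1, a secreted antagonist of BMPs, stood at 223, 168 and 173 FPKM in HMLE-Twist and at 0.214, 0.0855 and 0.0634 FPKM in HMLE-pBp, the third largest rise of all genes whose groups did not overlap (7.39 ± 0.13, adjusted p = 2.34e-09). The antagonists FST and FSTL3, which bind activin, fell by 3.50 ± 0.17 and 2.74 ± 0.23, so that antagonists went in both directions. FSTL1 rose by 2.81 ± 0.086, and LTBP3, which stores latent TGF-beta, fell by 3.44 ± 0.204. Inside the cell ID2, an inhibitor of helix-loop-helix factors, rose by 4.202 ± 0.17, while SMAD1, a mediator of BMP signals, did not pass (-0.21 ± 0.14).

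Receptors of platelet-derived growth factor rose, while EGFR, most other receptor tyrosine kinases tested and most ligands fell. Of 17 receptors 12 fell and 4 rose (median -2.03), and of 18 ligands 12 fell and 5 rose (median -1.38). Of these, 8 receptors and 7 ligands passed the filter through 1 line only and had to differ. PDGFRB, a receptor of platelet-derived growth factor, stood at 35.5, 45.9 and 35.9 FPKM in HMLE-Twist and at 0.473, 0.464 and 0.566 FPKM in HMLE-pBp (4.73 ± 0.12, adjusted p = 1.2e-08). PDGFRA, its paralogue, was listed at 10.4, 10.8 and 7.52 FPKM in HMLE-Twist and at 0 in all HMLE-pBp libraries, at least 376-fold higher against the floor of 3 reads. DDR2, a receptor for fibrillar collagen, rose by 4.24 ± 0.14. EGFR, the receptor for epidermal growth factor, went from 72.6, 80.8 and 78.2 to 21.8, 16.2 and 16.9 FPKM and fell by 2.03 ± 0.12 (adjusted p = 1.78e-06). MST1R (-4.33 ± 0.11) and FGFR2 (-4.12 ± 0.095) fell further. Among ligands TGFA, which binds EGFR, fell by 5.04 ± 0.097. FGFBP1, a carrier of fibroblast growth factors that was counted with the ligands, fell by 7.53 ± 0.16. FGF5 rose by 2.13 ± 0.25. AXL, often named among mesenchymal receptors, was high in both lines and did not pass (0.26 ± 0.12), at 182, 148 and 194 FPKM in HMLE-Twist and 135, 152 and 149.5 FPKM in HMLE-pBp. It rose under each of 3 other scalings (0.42 without rescaling, adjusted p = 0.0131) and without HMLE-Twist replicate 2 (0.38, adjusted p = 0.0166).

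Wnt ligands went in both directions too. Of 7 tested 5 fell and 2 rose, and the 2 that rose were the non-canonical ligands WNT5A and WNT5B. Of these 7 ligands 5 passed the filter through 1 line only and had to differ. WNT5A stood at 50.6, 42.4 and 45.1 FPKM in HMLE-Twist and at 0.0236, 0.0283 and 0.05601 FPKM in HMLE-pBp (5.502 ± 0.102, adjusted p = 2.68e-09), and WNT5B rose by 3.86 ± 0.18. ROR1, a receptor for WNT5A, rose by 1.59 ± 0.18, and the receptor FZD7 by 0.75 ± 0.17. WNT10A (-4.08 ± 0.13), WNT9A (-3.93 ± 0.14) and WNT7A (-3.05 ± 0.099) fell, and SFRP1, a secreted inhibitor that binds Wnt ligands, stood at 159, 158 and 167 FPKM in HMLE-pBp and at 0.0406, 0.0539 and 0.117 FPKM in HMLE-Twist, a fall of 7.24 ± 0.091. The 9 receptors had 2 rises and 5 falls, and the 4 inhibitors and targets 1 rise and 2 falls. For all genes tested the shares were 34% up and 35.9% down.

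**Figure D5:**
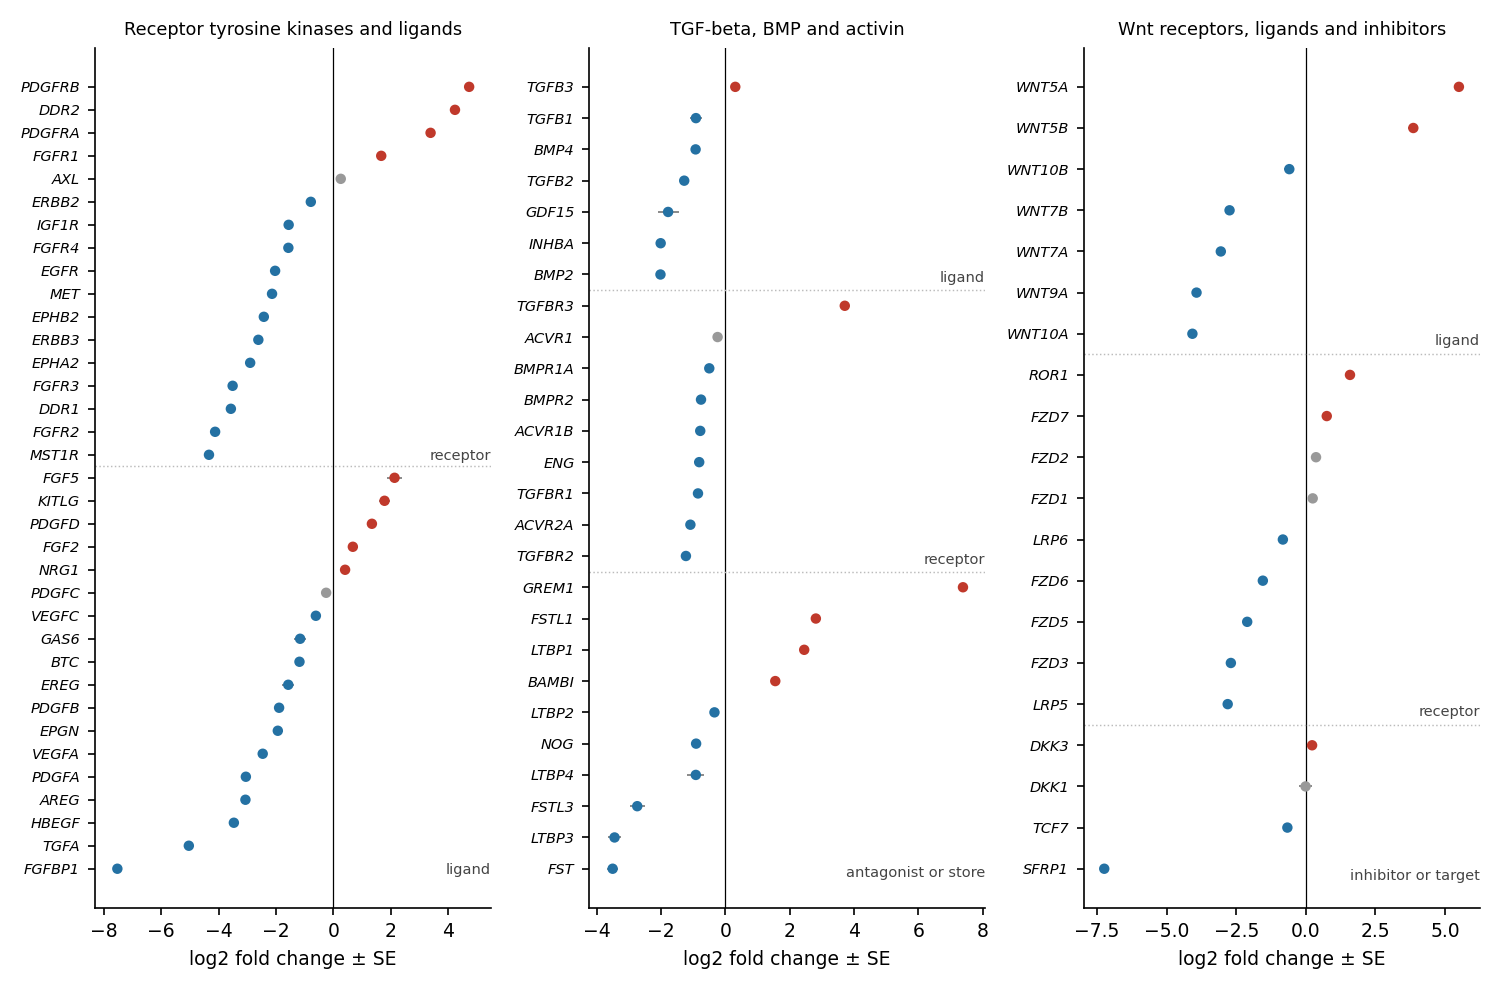
Log2 change with its SE for receptor tyrosine kinases and their ligands, for the secreted and membrane members of the TGF-beta, BMP and activin families, and for Wnt genes, ordered by role. Most members lie below 0, and GREM1, WNT5A, PDGFRB and DDR2 stand far above it.

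Markers used to sort breast stem and progenitor cells, most of them on the surface, fell more often than they rose. Of 11 tested 9 fell and 2 rose (median -1.76), with 3 past the filter through 1 line only. The list pools markers sorted as high with CD24, sorted as low, so its counts do not measure stem or progenitor cells. CD24, a mucin-like protein low on such cells, stood at 347, 302 and 304 FPKM in HMLE-pBp and at 1.54, 0.831 and 0.753 FPKM in HMLE-Twist (-7.303 ± 0.15, adjusted p = 4.34e-09). CD44, the hyaluronan receptor that the usual sort takes as high, also fell, from 199, 225 and 224 to 74.6, 52.1 and 64.2 FPKM, by 1.76 ± 0.14 (adjusted p = 7.29e-06). The loss of CD24 was the greater, so the ratio of CD44 to CD24 transcripts was nonetheless higher in HMLE-Twist. These are transcript levels of the whole gene, and neither CD44 splice forms nor surface protein were measured. MME, or CD10, rose by 5.04 ± 0.16 and THY1 by 2.62 ± 0.12. NGFR fell by 5.43 ± 0.16, and the log2 change of ALDH1A3, an aldehyde dehydrogenase, was -5.299 ± 0.11.

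Cytokines and chemokines fell in 12 of 14 cases and rose in 2 (median -1.95), with 10 of the 14 past the filter through 1 line only. The epithelial alarm cytokine IL1A fell by 4.69 ± 0.17, its relative IL1B by 3.01 ± 0.084, and IL1RN, the antagonist of both, by 2.94 ± 0.12. CXCL16 fell by 3.52 ± 0.13. CXCL12, a chemokine of stromal cells, rose by 1.46 ± 0.080, and CSF1 by 0.56 ± 0.105.

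Lists of general functions had medians near 0, with changes in both directions. Their counts stand beside 34% of all genes tested that rose and 35.9% that fell. Among 22 interferon-stimulated genes 5 rose, 7 fell and 10 did not pass (median -0.20). IFITM2 (2.42 ± 0.17) and IFIT1 (1.19 ± 0.13) rose, and the class I antigen HLA-C fell by 1.65 ± 0.201. Of 29 cell cycle genes 14 rose and 5 fell (median 0.30), or 19 and 5 without rescaling (median 0.47). The cyclins went apart, with CCNE2 at 1.22 ± 0.105 and CCNE1 at -1.34 ± 0.13, and with the D cyclins CCND2 and CCND1 down by 2.95 ± 0.14 and 1.24 ± 0.23. CDKN2C, an inhibitor of the kinases that bind D cyclins, rose by 1.95 ± 0.14. The 23 cholesterol genes had 9 rises and 9 falls, with a median of -0.11 that was 0.05 without rescaling. Among its enzymes IDI1 and HMGCS1 rose by 1.75 ± 0.13 and 1.18 ± 0.23, while SQLE (-1.91 ± 0.18) and DHCR7 (-1.55 ± 0.15) fell. Among 35 genes of ER and Golgi transport 16 rose and 14 fell (median 0.12), or 19 and 10 without rescaling (median 0.28). CREB3L1, a membrane-bound factor known to drive genes of collagen secretion, stood at 27, 35.9 and 34.8 FPKM in HMLE-Twist and at 0.0726, 0 and 0.0161 FPKM in HMLE-pBp (5.02 ± 0.13, adjusted p = 1.02e-08). SEC24D, a coat subunit of vesicles leaving the ER, rose by 1.32 ± 0.14, and the cargo receptors TMED3 and TMED10 fell by 1.67 ± 0.104 and 1.18 ± 0.095.

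Genes outside these lists also stood among the largest rises or the largest gains and losses in FPKM. SRGN, the proteoglycan core protein serglycin, stood at 243, 178 and 226 FPKM in HMLE-Twist and at 1.22, 0.846 and 1.25 FPKM in HMLE-pBp (6.68 ± 0.14). ANPEP, an aminopeptidase of the cell surface, rose by 6.53 ± 0.13, and ENPP2, or autotaxin, which makes lysophosphatidic acid, by 6.41 ± 0.10. LGALS1, or galectin 1, a lectin known from mesenchymal cells, rose from 501, 339.9 and 373 to 1056, 1685 and 1779 FPKM (1.88 ± 0.22). TMSB10, which binds actin monomers, rose by 0.74 ± 0.095, and RPSA, a ribosomal protein, by 1.41 ± 0.104. The greatest loss in FPKM was that of SLC7A5, an importer of large neutral amino acids, from 2499, 2855 and 3138 to 47.8, 82.7 and 56.4 FPKM (-5.51 ± 0.19, adjusted p = 5.26e-08). MT2A, a metallothionein, fell from 3830, 3891 and 4080 to 1514, 1398 and 1774 FPKM (-1.34 ± 0.102), and S100A2 from 1353, 1469 and 1597 to 46.8, 52.3 and 51.1 (-4.85 ± 0.095).

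Some genes were listed at 0 in all libraries of a line, 56 of those tested in HMLE-Twist and 46 in HMLE-pBp. SYT8, a synaptotagmin, was the highest of those at 0 in HMLE-Twist, at 136, 130.3 and 141 FPKM in HMLE-pBp, and so at least 867-fold lower in HMLE-Twist. S100A9, S100A8 and S100A7, calcium-binding proteins of stressed epithelia, were at least 374-fold, 166-fold and 276-fold lower. Of those at 0 in HMLE-pBp, ADAM33 was the highest, at 24.8, 38.6 and 40.03 FPKM in HMLE-Twist and at least 472-fold higher there. TRPA1, a cation channel, was at least 3167-fold higher and LIN7A at least 714-fold.

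The label of each line was then set against markers of other cell types. The epithelial markers CDH1, EPCAM, KRT5, KRT14, KRT8, KRT18, DSP, ESRP1 and GRHL2 were all higher in HMLE-pBp, with KRT18 at 359, 309 and 346 FPKM, and so were the basal markers KRT17, TP63 and ITGB4. In HMLE-Twist CDH1, EPCAM, DSP and ESRP1 stayed under 1 FPKM in every library. All mesenchymal markers checked, VIM, CDH2, FN1, ZEB1, ZEB2, COL1A1, COL3A1 and SPARC, were higher in HMLE-Twist, although FN1 and SPARC were abundant in HMLE-pBp as well. Leukocyte markers summed to 22.2 to 26.3 FPKM in HMLE-Twist and 28.8 to 40.3 in HMLE-pBp, where 2 of 12 passed the filter, CD68 (1.05 ± 0.101) and CD14 (-3.404 ± 0.22), and the defining PTPRC was at or near 0. Endothelial markers summed to 4.72 to 5.54 FPKM in HMLE-Twist and 1.39 to 1.63 in HMLE-pBp, and 1 of 10 passed the filter, ROBO4 (1.06 ± 0.10). Neural and muscle markers summed to 39.6 to 56.2 and 32.3 to 39.6 FPKM; 4 of 13 were tested, 2 of them past the filter through 1 line only, 2 rose (NES, 0.95 ± 0.11, and NEFL, 0.97 ± 0.095), and SOX10, MYOD1 and MYOG were at or near 0. Of 7 luminal markers tested 5 fell and 2 rose (median -1.26), with 2 past the filter through 1 line only. Their log2 changes ran from -3.70 to 2.84. FOXA1, a factor of luminal cells, fell by 1.26 ± 0.12, while GATA3, another such factor, rose as given above.

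Fibroblast and adipocyte markers summed to 607 to 740 FPKM in HMLE-Twist and 88.9 to 109 in HMLE-pBp, and 7 of 9 tested rose and 2 fell (median 2.99), with 6 of the 9 past the filter through 1 line only, so that these had to differ. LUM, or lumican, rose by 5.55 ± 0.12, beside DCN, PDGFRA and PDGFRB above, while FAP and PDPN, both used as markers of activated fibroblasts, fell (-1.34 ± 0.13 and -3.67 ± 0.11), and ADIPOQ was at or near 0 in both lines. Several of these genes belong to the matrix and receptor lists too. Whether cells of another origin had a part in these values was not tested. In such bulk samples fewer cells that transcribe a gene and less RNA per cell cannot be told apart.

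Reference genes, often taken as constant, were not alike in the lines. Of 14, 8 rose and 4 fell (median 0.28), with the rises down to 5 when HMLE-pBp replicate 2 was left out. GAPDH, a glycolytic enzyme, stood at 2731, 3433 and 3322 FPKM in HMLE-Twist and at 1647, 1586 and 1537 FPKM in HMLE-pBp (0.98 ± 0.103), and HPRT1 rose by 1.29 ± 0.12. TFRC and GUSB fell by 1.58 ± 0.16 and 1.33 ± 0.13. TBP did not pass, at -0.17 ± 0.11, and among the alternatives run fell only without HMLE-Twist replicate 1 (-0.25, adjusted p = 0.0238).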

How the data were processed

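RNA from HMLE-Twist and HMLE-pBp cells, mock-treated, was sequenced as stranded mRNA libraries made from 750 ng of RNA, in paired mode with 75 cycles per end, per the labels' protocols. The authors deposited FPKM values per gene and library, 1 table per group, normalized within that table. DESeq2 1.1.0 and the build hg19 are named in the submitters' processing notes; for the aligner, the counter and the gene models, the entry is "not given in the sources used here". Tables of the salinomycin groups were left out.

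The 6 columns were rescaled together by the median of ratios over 13823 genes, with factors of 1.0456, 1.0531 and 1.0763 for HMLE-Twist and 0.9527, 0.9439 and 0.9384 for HMLE-pBp. Reads were recovered from the steps of the FPKM values: of 18894 genes above 0, 100% came out whole in all 6 libraries (within 0.05 reads). The search was wide enough that few genes could have failed this. Of 11682 genes over 300 reads, 98.9% also gave a whole gene length at once. Another 123 did so after their reads were multiplied, and 4 gave none. The recovered reads give the depth, of 17.86 to 26.51 megareads, and floors of 3 reads over a group, which cover counting error only.

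Genes at 1 FPKM or more in at least 3 of 6 libraries were tested with limma 3.58.1 on log2(FPKM + 1), with a trended eBayes step (R 4.3.3), the line as the sole term and Benjamini-Hochberg adjustment. The script was tested on simulated data. The p-values measure the spread between these libraries. Promoter and microRNA sequences come from RefSeq tables of GRCh38.p14, and no coordinate was converted between builds.

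The comparison, its gene lists and the rule for named genes were chosen with earlier results of these data known. The rule names the 12 largest rises and 12 largest falls, the 5 largest gains and losses in FPKM, up to 4 called members in each direction per list with values of members that did not pass, a set list of EMT genes, and the 6 highest genes at 0 in each line. It was applied to 31 lists holding 636 genes, 494 of them tested. Some genes the rule names are not reported here. Alternatives are given in the closing section.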

Additional observations from a re-analysis of the deposited data

How the results depend on the processing

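Over 16 alternatives 87.5% (without HMLE-pBp replicate 3) to 99.8% (a mean of at least 5 FPKM) of the calls that could be tested were kept, and 0 were made in the opposite direction. Leaving out each library in turn gave 3450 to 4327 rises and 3797 to 4432 falls, and 1118 to 1229 and 1952 to 2154 at 2-fold. With a mean of at least 5 FPKM, which tests 8445 genes, 738 rose and 1355 fell at 2-fold. Deposited values without joint rescaling gave 4905 rises and 3632 falls; they shift the median of all genes by 0.14 (log2), so that 57.5% of calls were higher in HMLE-Twist instead of 48.6%. On recovered reads, limma-voom, chosen after seeing the data, called 4027 and 4268. The replicate numbers were not taken to pair the libraries in the main fit. Deviations from the line's mean correlated at 0.27, 0.08 and 0.59 for same-numbered libraries of the lines. For different-numbered ones they correlated at -0.40 to 0.17. HMLE-Twist replicate 2 correlated better with HMLE-pBp replicate 1, at 0.15, than with its own number. Whether same-numbered libraries were handled together was not tested. With the replicate block 4268 rose and 4523 fell, and of the named genes PLEC gained a call (-0.58, adjusted p = 0.00162, against 0.0902).

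Of 213 named genes tested, 204 kept their direction and call under every alternative that tested them. The signs of DST (-0.15 to 0.12 without 1 library), SERPINH1 (-0.26 to 0.06 without 1 library, 0.02 without rescaling) and TJP1 (0.03 without rescaling), none of them called, turned over. In 18 of 31 lists no count moved by over 1.5 times. A mean of at least 5 FPKM, which drops members at low levels, moved counts in several others. EMT transcription factors then had 4 rises and 1 fall (9 and 4 in the main fit). Epithelial identity factors had 2 and 8 (2 and 18). Cytokines and chemokines had 1 and 3 (2 and 12), and integrins outside the hemidesmosome 0 and 9 (2 and 8). With no filter on low values the Wnt list had 11 rises and 15 falls (5 and 12). Every share of summed FPKM kept its direction when only genes past the filter were summed. Genes near 0 in 1 line, where a few reads set the value, are limited by depth.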

Other observations

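Gene families outside the lists, chosen after their values had been seen, also differed between the lines. Of 9 amino acid transporters tested (of 17 in the SLC7 and SLC3 families and among the SLC1A carriers of neutral amino acids) all 9 fell, with a median log2 change of -1.83. SLC3A2, the heavy chain that carries SLC7A5 to the membrane, stood at 50.2, 71.3 and 74.02 FPKM in HMLE-Twist and at 1004, 1144 and 1291 FPKM in HMLE-pBp, a fall of 4.13 ± 0.16 (SE; limma, adjusted p = 1.12e-07). Both chains of that transporter were thus lower. The cystine importer SLC7A11 fell by 2.18 ± 0.31, and the glutamine importer SLC1A5 by 2.08 ± 0.21. Notch genes, which carry signals between touching cells, had 6 falls and no rise among 7 tested (median -2.80), but 4 of the 7 passed the filter through 1 line only and had to differ. The ligands JAG2 (-4.83 ± 0.18) and JAG1 (-2.73 ± 0.093), the receptor NOTCH1 (-2.81 ± 0.17) and the target HES1 (-3.34 ± 0.13) were among them. Of 78 cytosolic ribosomal proteins 57 rose and 1 fell under the joint rescaling (median 0.52), and the rises were more numerous than the falls under every scaling tried.

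HOX genes, which record position along the body axis, went in both directions. Of 19 tested 9 rose and 6 fell (median 0.25), and 5 of the 19 passed the filter through 1 line only. Over all genes tested, 34% rose and 35.9% fell, so these counts do not set HOX genes apart as a family. HOXC6 rose by 1.58 ± 0.12 and HOXB7 by 2.15 ± 0.098, while HOXA3 fell by 1.73 ± 0.12. Single members also stood out in other families, with the annexins ANXA6 at 5.59 ± 0.12 and ANXA3 at -5.58 ± 0.14, and the alpha tubulins TUBA1A at 5.32 ± 0.16 and TUBA4A at -2.29 ± 0.090. MYC, a growth-promoting factor, stood at 17.6, 19.4 and 22.6 FPKM in HMLE-Twist and at 154, 114 and 149 FPKM in HMLE-pBp (-2.74 ± 0.14, adjusted p = 6.49e-07). TERT, the telomerase subunit used to immortalise HMLE, was transcribed in both lines, at 16.7, 20.6 and 28.02 FPKM in HMLE-Twist and 193, 196 and 254 FPKM in HMLE-pBp, and fell by 3.26 ± 0.19 (adjusted p = 1.27e-06). The files do not separate its introduced from its own transcripts.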
